A study of Sus scrofa with 30 samples.

Results

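The macrophage marker genes followed here are 10 genes chosen by name, with earlier results of these data known. They are CSF1 and its receptor CSF1R, the signalling adaptor TYROBP, the complement genes C1QA, C1QB and C1QC, the scavenger and uptake receptors CD163 and MRC1, the cytoskeletal protein gene AIF1, and CD68. Every transcript whose identifier belongs to a member in the RefSeq annotation of Sscrofa11.1 was taken, and the values were added up per gene. This gave 9 of the 10 genes, with 22 of 61773 transcripts, among 14904 genes with a symbol and 26019 gene-level features once the loci of assembled transcripts are included. CD68, a lysosomal glycoprotein gene, was not analysed here. CSF1R lies on chromosome 2 (151102138 to 151130311), CSF1 on chromosome 4 (110178466 to 110198232), CD163 on chromosome 5 (63300200 to 63334497), MRC1 on chromosome 10 (44107926 to 44226734), AIF1 on chromosome 7 (23711752 to 23731191) and TYROBP on chromosome 6 (45309199 to 45312562). The C1q genes stand side by side on chromosome 6, C1QA at 80586259 to 80589213, C1QC at 80592591 to 80597464 and C1QB at 80601680 to 80606076, within 19.8 kb.

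The samples were pieces of mammary parenchyma from 30 adult, multiparous Danish Landrace × Yorkshire sows, all half-siblings without a genetic modification or drug treatment named in the records, with 6 sows at each of 5 stages. Gestation was sampled at day 70 (MG) and at day 110 (LG). Lactating sows were sampled on day 2 (EL) or on day 10 (PL) postpartum, and W2 sows 2 days after their litter was weaned. Within each stage 3 of the 6 samples were near-copies of the mean of the other 3, so values are given for the 3 counted samples of each stage (15 in all). Values are called units here and lie on the TPM scale, which is corrected for transcript length and adds up to about the same total in each sample. Each piece was taken from below the same teat on the left side, so a sow is represented by a single gland.

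Macrophages are tissue phagocytes that take up dying cells and debris, and the mammary gland holds them in the stroma and along the epithelium, where ducts grow and where the gland is remodelled after weaning. CSF1 is the growth factor that keeps most of them alive, through the receptor tyrosine kinase CSF1R. C1q, the recognition unit of the classical complement pathway, is built from the products of C1QA, C1QB and C1QC, and tissue macrophages are its main source. TYROBP couples activating receptors of myeloid and natural killer cells to kinases, CD163 takes up haemoglobin bound to haptoglobin, MRC1 is the mannose receptor, and AIF1 (IBA1) binds actin in macrophages and microglia. In tissue RNA of this kind, fewer macrophages and less RNA of a gene per macrophage cannot be told apart.

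All 9 members had their lowest stage mean in PL. Over the 14603 features that reached 5 units in the mean of some stage, 62.4% were lowest in PL, so this place in the order was also the most frequent in the table. The highest mean was in MG for 6 members (CSF1, MRC1, C1QA, C1QB, C1QC and TYROBP) and in W2 for 3 (CSF1R, CD163 and AIF1), against 20.2% and 54.2% of those features. The sum of the members was largest in MG, at 523 ± 40.6 units (SD, n = 3), followed by 461 ± 51.6 for W2, 438 ± 94.6 for LG, 317 ± 78.5 for EL and 201 ± 50.9 for PL. The C1q genes made up 77.8 to 81.7% of that sum at every stage. As levels on the TPM scale, averaged over the 15 samples, C1QB stood at 107 units, C1QC at 106 and C1QA at 99.1, followed by AIF1 at 23.2, TYROBP at 20.2, CD163 at 11.13, CSF1R at 10.6, CSF1 at 6.32 and MRC1 at 4.29. The ratio of the highest to the lowest stage mean was 5.11 for CSF1R, 4.23 for CD163, 2.88 for C1QA, 2.86 for C1QB, 2.53 for TYROBP, 2.35 for C1QC, 2.22 for CSF1, 1.90 for MRC1 and 1.72 for AIF1.

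**Figure D1:**
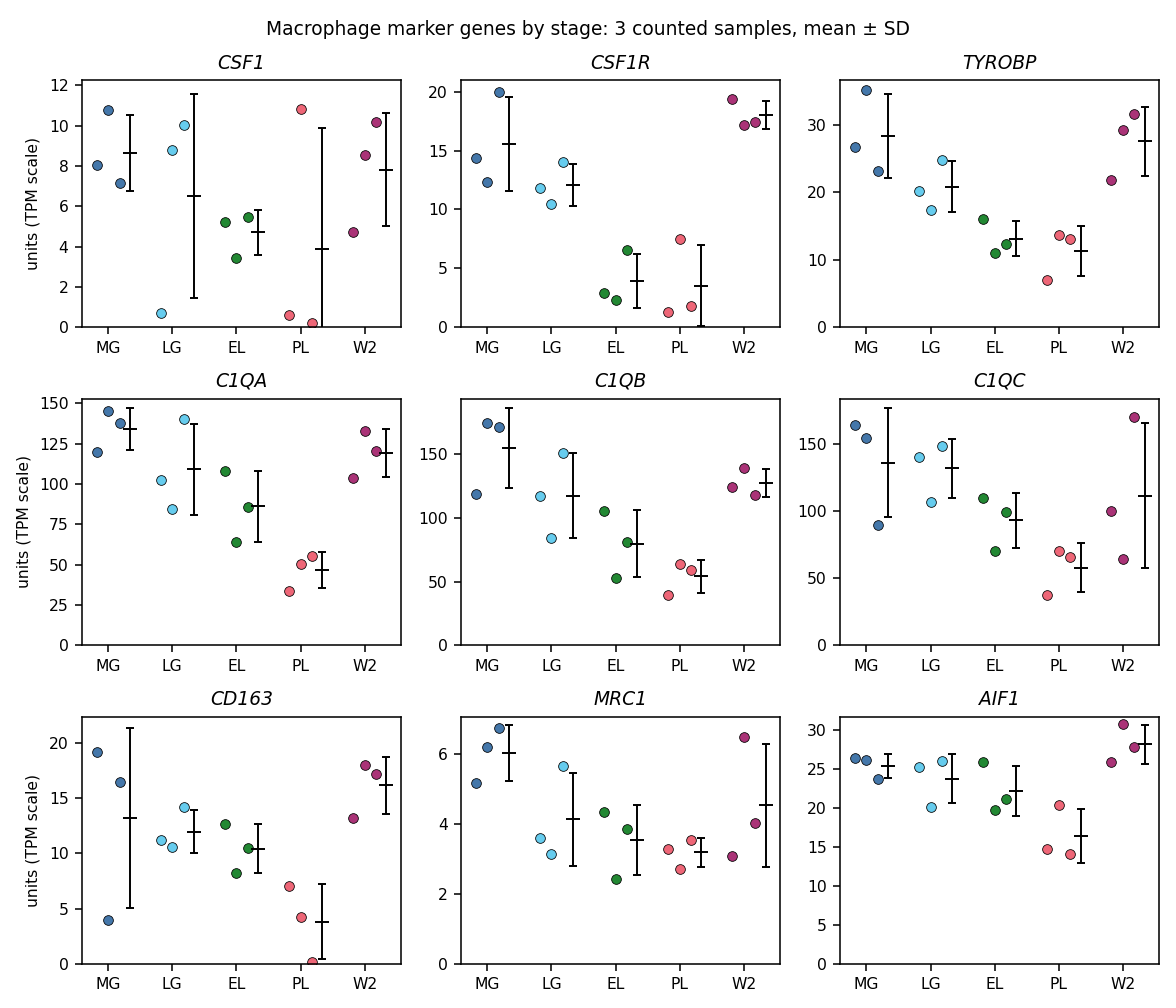
Gene sums of the 9 members in units on the TPM scale (vertical axes start at 0 and differ between panels) at the stages MG, LG, EL, PL and W2, with each point 1 counted sample in the order of its sample number and the bar the mean ± SD (n = 3). CSF1R samples lie between 1.31 and 7.46 in PL and between 17.2 and 19.4 in W2, and the lower SD bar of CSF1 in PL is cut at 0.

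Facts of the whole table bear on these levels. The 7 milk protein genes held 10.5 to 13.9% of the units of W2 samples and 11.3 to 16.4% of those of MG, against 15.9 to 20.5% for LG, 20.0 to 25.5% for EL and 22.6 to 40.8% for PL. The total of every sample is fixed, so the shares of these genes and of all others depend on each other. How far the milk protein share accounts for the PL values was not tested. PL sample 2 stood apart, with 40.8% in milk protein genes and 27708 transcripts listed at 0, against 15659 to 22249 in the other counted samples. Each test was also run after median ratio scaling. In it a sample is divided by its median ratio to a common reference over 3522 features with at least 10 units in every sample. The divisors ran from 0.566 for PL sample 2 to 1.28 for W2 sample 6. Between W2 and PL the median log2 fold change of all features was 0.68 as deposited and 0.09 after this scaling. Between PL and MG it was -0.57 and -0.05. The deposited values do not tell which of these scales gives the amount of RNA per cell.

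CSF1R showed the largest fold between stages among the members. Its MG samples stood at 14.3, 12.3 and 20.0 units, with 11.8, 10.4 and 14.0 in LG, 2.90, 2.29 and 6.55 in EL, 1.31, 7.46 and 1.81 in PL, and 19.4, 17.2 and 17.5 in W2. All EL samples lay below all samples of MG, LG and W2, and the same held for PL. W2 lay above LG in every sample but overlapped MG, and EL overlapped PL. CSF1R rose from PL to W2 by 2.52 ± 0.48 on the log2 scale (SE) with an adjusted p of 0.0025 in limma, 5.11-fold in the means. It was lower in PL than in MG by 2.29 ± 0.48 (log2 fold change -2.29, adjusted p = 0.0056) and lower than in LG (log2 fold change -1.96, adjusted p = 0.019). The difference of EL from MG was of similar size, -1.96, but its adjusted p was 0.201, and W2 against EL gave 2.19 with an adjusted p of 0.0593. After median ratio scaling W2 against PL gave 1.87 (adjusted p = 0.0172), PL against MG -1.72 (0.0294) and PL against LG -1.53 (0.0561). The call against LG was also lost when LG sample 1, LG sample 4, PL sample 2 or PL sample 6 was left out (adjusted p up to 0.0748), and W2 against EL was called without PL sample 2 or PL sample 3 (adjusted p = 0.0134 and 0.0222). PL samples are not part of W2 against EL. They act on its test only through the spread estimated over all 5 stages and the adjustment.

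The CSF1R values were carried by different reference transcripts in different samples. XM_021085015.1 held nearly all of the sum in the MG samples (14.1, 12.3 and 20.0 units), in LG sample 4 (14.0), EL sample 6 (6.53), PL sample 3 (7.46) and W2 samples 2 and 3 (18.8 and 17.1). XM_003124100.6 held all of it in LG samples 1 and 3 (11.8 and 10.4 units), EL samples 3 and 4 (2.90 and 2.29) and PL samples 2 and 6 (1.31 and 1.81). XM_013995332.2 reached 7.40 units in W2 sample 6 and was at most 0.049 elsewhere. Within EL and within PL the sample with XM_021085015.1 had the highest sum. No CSF1R transcript was called by itself in any comparison, with F test adjusted p of 0.246, 0.504 and 0.723. Transcripts of a gene share exons, so how the quantifier splits reads among them is less certain than their sum, and reads it gave to assembled transcripts of the locus are not in the sum.

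**Figure D2:**
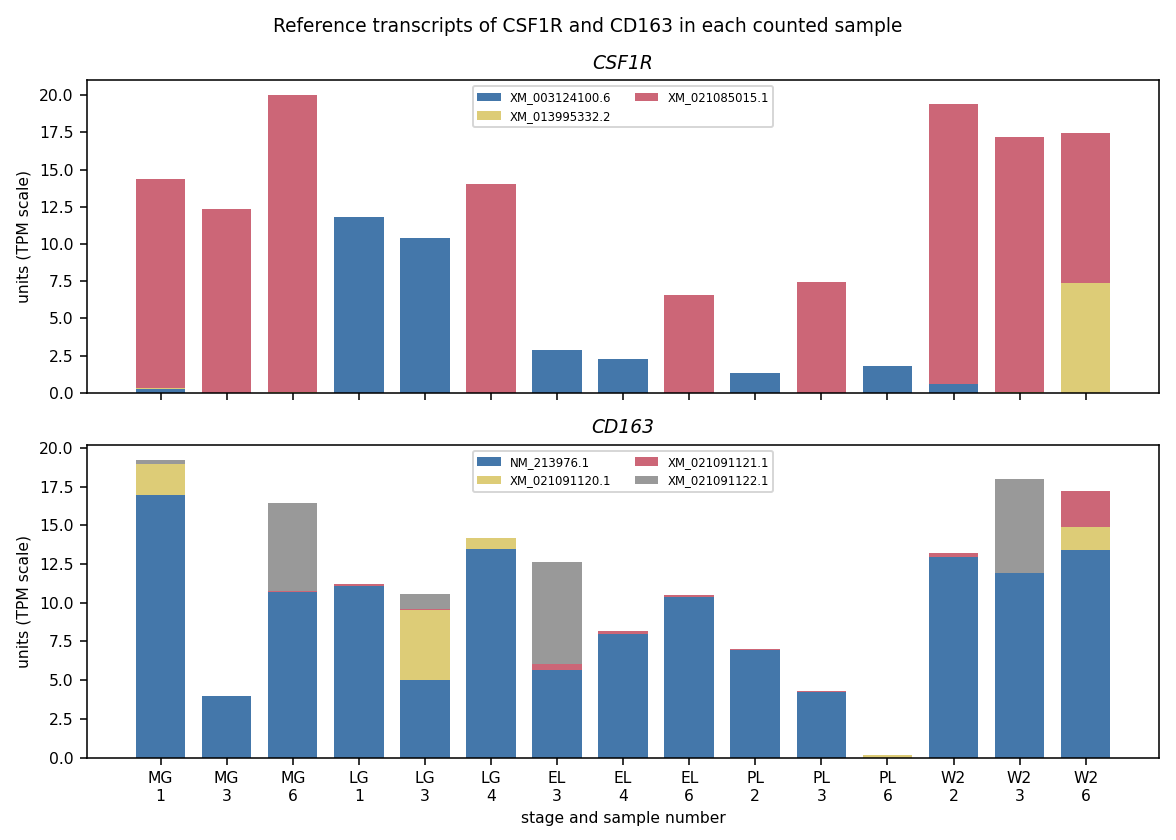
Stacked bars of the reference transcripts of CSF1R (3, above) and CD163 (4, below) in units on the TPM scale, for each of the 15 counted samples by stage and sample number. The CSF1R bar is made of XM_021085015.1 in some samples and of XM_003124100.6 in others of the same stage, and the CD163 bar of PL sample 6 reaches only 0.18 units.

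CSF1, the ligand, spread widely among the samples of LG and of PL. MG samples held 8.04, 10.8 and 7.14 units of it, with 0.70, 8.81 and 10.0 in LG, 5.2, 3.44 and 5.46 in EL, 0.62, 10.8 and 0.22 in PL, and 4.73, 8.55 and 10.2 in W2. LG sample 1 and PL samples 2 and 6 were below 1 unit, while PL sample 3 was as high as any MG sample. No comparison of CSF1 was called, with 1.93 ± 0.95 and an adjusted p of 0.137 for W2 against PL. Without PL sample 3 the value was 3.15 (adjusted p = 0.0095). The log2 ratio of CSF1 to CSF1R within a sample was 0.33 ± 0.51 in EL (SD, n = 3) and ran from -3.36 to 0.51 in the other 12 samples. The difference between both means, 1.33, had p = 0.0308 in a two-sided exact permutation test and 0.231 after adjustment over the 15 tests of 3 ratios at 5 stages.

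The C1q genes, C1QA, C1QB and C1QC, all had their highest mean in MG and their lowest in PL. C1QA was at 120, 145 and 138 units in the MG samples, with 103, 84.8 and 140 in LG, 108, 64.0 and 86.0 in EL, 34.0, 50.2 and 55.5 in PL, and 104, 133 and 121 in W2. Every PL sample of C1QA lay below every sample of each other stage. C1QA rose from PL to W2 by 1.37 ± 0.24 on the log2 scale (adjusted p = 0.0016, 2.56-fold) and was lower in PL than in MG (-1.54 ± 0.24, adjusted p = 0.0012) and LG (-1.22 ± 0.24, adjusted p = 0.0066). Against EL the value was -0.88 with an adjusted p of 0.0616. These calls of C1QA were also made after median ratio scaling, at 0.63, -0.89 and -0.72 (adjusted p = 0.018, 0.0035 and 0.0133).

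C1QB had 119, 175 and 172 units in the MG samples, with 117, 84.1 and 151 in LG, 106, 53.2 and 81.0 in EL, 39.5, 63.7 and 59.4 in PL, and 125, 140 and 118 in W2. PL lay below MG, LG and W2 in every sample and overlapped EL. W2 was 1.25 ± 0.28 above PL (adjusted p = 0.0062), and PL was -1.52 ± 0.28 against MG (adjusted p = 0.003) and -1.10 ± 0.28 against LG (adjusted p = 0.0235). After scaling the call against MG was kept (-0.86, adjusted p = 0.0192), and W2 against PL was 0.51 (adjusted p = 0.13). The call against LG was lost without LG sample 1, LG sample 4 or PL sample 2 (adjusted p up to 0.103).

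C1QC varied more among sows. The MG samples had 164, 155 and 89.6 units of it, with 141, 107 and 149 in LG, 110, 70.3 and 99.8 in EL, 37.3, 70.7 and 66.1 in PL, and 99.98, 64.4 and 171 in W2. W2 sample 3, the highest of its stage for C1QA and C1QB, was the lowest for C1QC and lay within the PL range. C1QC was called lower in PL against MG (-1.23 ± 0.36, adjusted p = 0.0279) and LG (-1.22 ± 0.36, adjusted p = 0.0424), but W2 against PL gave 0.88 ± 0.36 with an adjusted p of 0.0812. Without W2 sample 3 this value was 1.22 (adjusted p = 0.0332). The call against MG was lost without MG sample 1, MG sample 3 or PL sample 2 (adjusted p up to 0.105). The call against LG was kept in 6 of the 15 fits that left out 1 sample. The log2 ratio of C1QC to C1QB ranged from -1.11 to 0.53 within W2 and from -0.94 to 0.47 within MG, while in PL it ran from -0.08 to 0.15.

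The C1QA to C1QB ratio was steadier, with log2 values from -0.34 to 0.26 over the 15 samples. Its 3 EL samples (0.036 to 0.26) lay above all others, whose highest value was 0.035. The EL mean exceeded that of the other 12 samples by 0.28, with p = 0.0044 in the exact permutation test and 0.0659 after adjustment over the 15 tests. This p is the smallest that 3 samples against 12 can give. A single ratio test could therefore not pass the adjustment, and nothing follows from its not passing. None of the 15 tests passed, and 2 had an unadjusted p below 0.05, the EL tests of this ratio and of CSF1 to CSF1R. The ratios were taken of units + 0.5, which matters little for the C1q genes and draws the ratio of CSF1 to CSF1R toward 0 where CSF1 is below 1 unit.

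**Figure D3:**
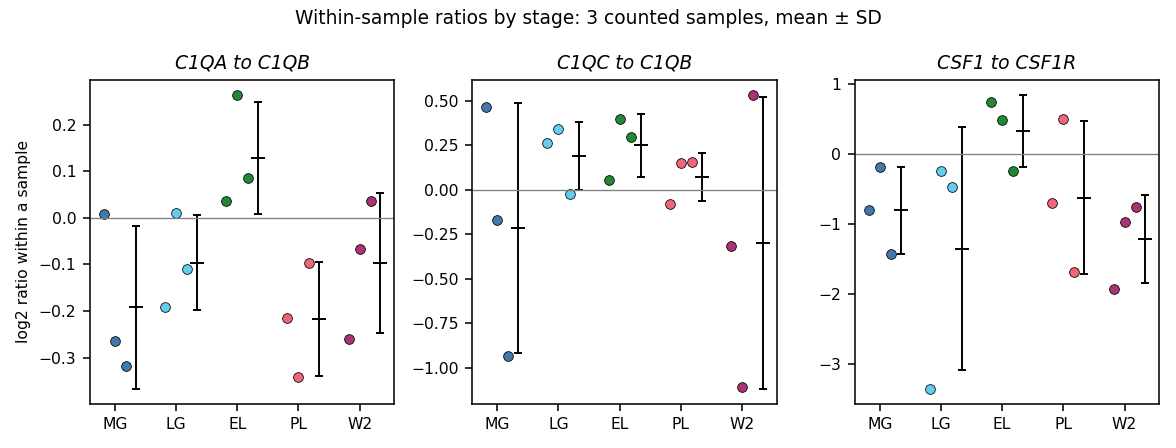
Log2 ratios of C1QA to C1QB, C1QC to C1QB and CSF1 to CSF1R within each counted sample by stage, with the mean ± SD (n = 3) and a line at 0 where both genes are equal. The 3 EL points of C1QA to C1QB lie above the other 12, and the points of C1QC to C1QB spread from -1.11 to 0.53 in W2.

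CD163, the haemoglobin scavenger receptor, had 19.2, 3.97 and 16.4 units in the MG samples, with 11.2, 10.5 and 14.2 in LG, 12.6, 8.20 and 10.5 in EL, 7.01, 4.27 and 0.18 in PL, and 13.2, 18.0 and 17.2 in W2. PL lay below LG, EL and W2 in every sample, and the low MG sample 3 made MG overlap it. CD163 rose from PL to W2 by 2.51 ± 0.74 (adjusted p = 0.022, 4.23-fold). Without PL sample 6, which was listed at 0.18 units, that difference was 1.47 (adjusted p = 0.0491), and the call was lost without W2 sample 3 or W2 sample 6 (adjusted p = 0.0646 and 0.0624). After median ratio scaling it was 1.86 with an adjusted p of 0.174. Against MG and LG the PL values were -1.98 and -2.10, with adjusted p of 0.069 and 0.0764. Both passed without PL sample 2 (adjusted p = 0.0288 and 0.034), and the former also without MG sample 3 (0.039).

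MRC1, the mannose receptor, was the least abundant member and rested on a single transcript. Its MG samples had 5.17, 6.22 and 6.75 units, with 3.60, 3.14 and 5.66 in LG, 4.34, 2.43 and 3.86 in EL, 3.29, 2.72 and 3.55 in PL, and 3.08, 6.50 and 4.02 in W2. MG lay above EL and PL in every sample, and PL overlapped LG, EL and W2. No comparison of MRC1 was called. PL against MG gave -0.83 ± 0.30 (adjusted p = 0.0623, and 0.0472 without W2 sample 3, which is in neither stage), and W2 against PL gave 0.40 as deposited and -0.26 after median ratio scaling (adjusted p = 0.331 and 0.591).

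TYROBP had 26.7, 35.2 and 23.1 units in the MG samples, with 20.2, 17.3 and 24.8 in LG, 16.0, 11.0 and 12.3 in EL, 6.94, 13.7 and 13.0 in PL, and 21.8, 29.2 and 31.6 in W2. EL and PL overlapped each other, and each lay below MG, LG and W2 in all samples. TYROBP rose from PL to W2 by 1.30 ± 0.27 (adjusted p = 0.0042, 2.46-fold) and was lower in PL than in MG (-1.34 ± 0.27, adjusted p = 0.0049) and LG (-0.91 ± 0.27, adjusted p = 0.0446). After scaling, W2 against PL was 0.58 (adjusted p = 0.0462) and PL against MG -0.70 (adjusted p = 0.0224). The EL values against MG and W2 were not called, at -1.08 for EL vs MG (adjusted p = 0.213) and 1.05 for W2 vs EL (adjusted p = 0.0806), though both were called without PL sample 2 (adjusted p = 0.0435 and 0.0135). That sample is in neither comparison and acts on them only through the spread estimated over all 5 stages and the adjustment. The call of PL against LG was kept in 5 of the 15 fits that left out 1 sample.

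AIF1 had the smallest fold between stages. The MG samples had 26.4, 26.2 and 23.6 units, with 25.2, 20.1 and 26.0 in LG, 25.8, 19.7 and 21.2 in EL, 14.8, 20.3 and 14.0 in PL, and 25.9, 30.8 and 27.8 in W2. It was called in W2 against PL at 0.78 ± 0.18 (adjusted p = 0.0066) and in PL against MG at -0.64 ± 0.18 (adjusted p = 0.0228). Both values were close to the median of all features in the same comparison, 0.68 and -0.57. After median ratio scaling they were 0.05 and 0.01, with adjusted p of 0.882 and 1. As deposited, the call against MG was lost without MG sample 1, MG sample 3 or PL sample 6 (adjusted p up to 0.0695).

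Across the 9 members, 6 were called higher in W2 than in PL (CSF1R, CD163, C1QA, C1QB, TYROBP and AIF1), where 30.4% of all 26019 features and 44.5% of the 12006 features with a mean of at least 5 units were called higher. PL was lower than MG for 6 members (CSF1R, AIF1, C1QA, C1QB, C1QC and TYROBP), against 23.0% and 35.1%, and lower than LG for 5 (CSF1R, C1QA, C1QB, C1QC and TYROBP), against 13.1% and 21.1%. The last count was 1 without LG sample 1 or LG sample 4, 2 without PL sample 2 and 3 without MG sample 1, LG sample 3 or EL sample 6. Samples of MG and EL act on that count only through the spread estimated over all 5 stages and the adjustment. No member was called in the opposite direction in these comparisons. Of all features, 2.48% were called lower in W2 than in PL and 2.23% higher in PL than in MG. Shares this low leave little room for such a call among 9 members. Under median ratio scaling, 3 members were called higher in W2 than in PL (CSF1R, C1QA and TYROBP, background 7.42%), 4 were called lower in PL than in MG (those 3 and C1QB, background 5.96%) and 1 was called lower in PL than in LG (C1QA, background 5.14%). The members' median log2 fold change was 1.30 for W2 vs PL and -1.52 for PL vs MG, and 0.58 and -0.86 after scaling. These comparisons share the PL samples, so they are not independent of one another.

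**Figure D4:**
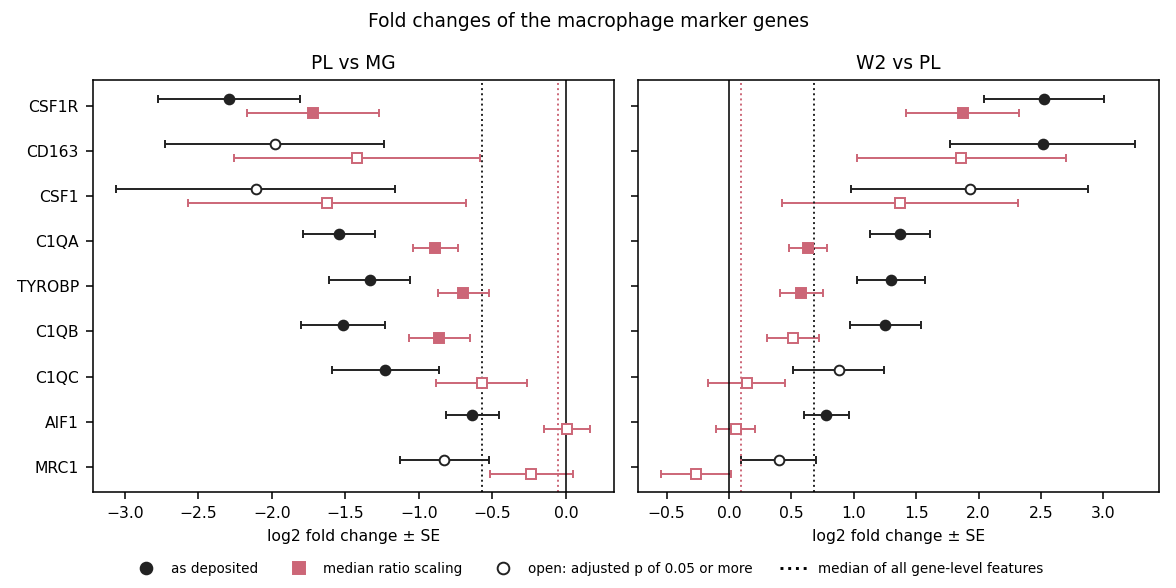
Log2 fold changes ± SE of the 9 members for PL vs MG (left) and W2 vs PL (right), as deposited (circles) and after median ratio scaling (squares), filled where the adjusted p is below 0.05, with dotted lines at the median of all gene-level features. For W2 vs PL the circles of 6 members and the squares of 3 are filled, and AIF1 lies near the dotted line of each scale.

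The other 7 comparisons called no member in limma. Few features were called at all, with 4.62% for PL vs EL, 0.553% for W2 vs EL, 0.0346% for W2 vs LG, 0.0269% for EL vs MG, 0.0154% for EL vs LG, 0.0115% for LG vs MG and 0.0115% for W2 vs MG. At an unadjusted p below 0.05, PL vs EL had 3 members (background 19.0%). The numbers were 5 for EL vs MG (background 15.9%), 3 for W2 vs EL (25.1%), 2 for EL vs LG (6.18%) and 0 for LG vs MG, W2 vs MG and W2 vs LG (4.44%, 3.09% and 7.56%). Samples of EL lay wholly below those of MG for 6 members, while 27.5% of all features did so, and W2 lay wholly above EL for 5, while 35.5% did. A two-sided exact permutation test of 3 samples against 3 cannot give a p below 0.10. Over all 5 stages the F test called CSF1R, C1QA, C1QB and TYROBP (adjusted p = 0.0068, 0.0054, 0.0136 and 0.0114; background 18.3%), and AIF1 had an adjusted p of 0.0509.

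By transcript, 4 of the 22 member transcripts were called higher in W2 than in PL (background 6.38%), 3 lower in PL than in MG (3.75%) and 1 lower in PL than in LG (1.90%). They were NM_001003924.1 of C1QA in all of these, NM_001244283.1 of C1QB and NM_214202.1 of TYROBP in W2 vs PL and PL vs MG, and NM_001129950.1 of AIF1 in W2 vs PL. With 1 sample left out in turn, 4 to 11 of the 220 pairs of transcript and comparison were called. The main transcripts carried nearly all of C1QA, C1QB and C1QC, apart from C1QA in MG sample 1, where XM_021093596.1 held 12.7 units. The AIF1 transcript NM_001129950.1 had 6.47, 11.5 and 7.60 units in PL and 17.0, 20.6 and 20.7 in W2, while the other, XM_021098301.1, had 8.28, 8.81 and 6.41 in PL and 8.86, 10.2 and 7.08 in W2. Thus the AIF1 samples of PL and W2 were apart in the first transcript and overlapped in the second.

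Other genes of the macrophage and myeloid lineage were read from 5 lists, also chosen with earlier results known, with 64 of 70 genes in the table. From PL to W2, 24 of the 64 were called higher, a share between the 30.4% of all features and the 44.5% of those with a mean of at least 5 units, and 6 were called lower (2.48% of all features). After median ratio scaling 10 were called higher and 9 lower, against 7.42% and 5.66%. PL vs MG gave 25 lower, against 23.0% of all features and 35.1% of those with a mean of at least 5 units, and 6 higher (2.23%). After scaling it gave 12 lower and 9 higher, against 5.96% and 5.04%. On the scaled values the genes called in the lists were thus split about evenly between both directions.

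Among the CSF1R axis and macrophage transcription factors, 3 of 10 were called higher in W2 than in PL (30.4% of all features) and 1 lower (2.48%). CEBPA, a myeloid and adipocyte transcription factor, rose from 8.82 ± 4.26 units in PL to 40.3 ± 1.95 in W2 (log2 fold change 2.23 ± 0.32, adjusted p = 5.0e-04). SPI1 (PU.1), which acts on the CSF1R promoter, rose from 3.47 to 9.64 units in the means (1.46 ± 0.37, adjusted p = 0.0107), a call not made after scaling (0.79, adjusted p = 0.176). CSF2RA, a receptor chain for the related growth factor CSF2, went the other way, from 27.1, 12.0 and 11.2 units in PL to 2.97, 4.89 and 3.72 in W2 (-1.89 ± 0.33, adjusted p = 0.0016).

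The scavenger and uptake receptors held genes of either direction, where 30.4% of all features were called higher in W2 than in PL and 2.48% lower. Of 13 in the table, 2 were called higher in W2 than in PL, MERTK, a receptor for dying cells (2.82 ± 1.47 to 11.0 ± 2.70 units; 1.89, adjusted p = 0.0037), and VSIG4, a complement receptor of resident macrophages (3.23 ± 1.16 to 10.4 ± 2.59 units; 1.56, adjusted p = 0.0017). The 2 called lower were FOLR2, a folate receptor, and CD14, the endotoxin co-receptor. FOLR2 had 95.0, 108 and 119 units in PL, 15.3, 54.9 and 54.2 in EL, and 10.7, 13.4 and 19.2 in W2 (-2.89 ± 0.49, adjusted p = 0.0013). CD14 had 9.23, 234 and 298 units in PL and 5.38, 7.90 and 6.63 in W2 (-3.64 ± 0.93, adjusted p = 0.0113), so that PL sample 2 stood near the other stages and samples 3 and 6 far above them. The list as a sum was 372 ± 157 units in PL and 110 to 132 on average in the other stages, while the members were lowest in PL. CD14 and FOLR2 averaged 180 and 107 units of that PL sum. The median log2 fold change of the list was -0.68 for PL vs MG and 0.50 for W2 vs PL. All features had medians of -0.57 and 0.68, and the members had -1.52 and 1.30.

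Of the 14 complement genes outside C1Q, 2 were called higher in W2 than in PL (30.4% of all features), 2 lower (2.48%) and 10 not at all. C3, the central component, had 75.2, 1382 and 1461 units in PL and 68.4, 67.9 and 30.0 in W2 (-3.35 ± 0.88, adjusted p = 0.0129), and C7 was called lower in W2 as well (-1.39, adjusted p = 0.0146). The receptors C3AR1 and C5AR1 were called higher in W2, with 1.04 (adjusted p = 0.0109) and 1.16 (adjusted p = 0.0127) from PL to W2, though neither was called after scaling (adjusted p = 0.23 and 0.183). After scaling the list had none called higher and 3 lower, against 7.42% and 5.66% of all features.

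Of the genes around TYROBP and Fc receptor signalling, 8 of 12 were called higher in W2 than in PL (30.4% of all features) and 1 lower. After median ratio scaling 2 were called higher (7.42% of all features) and 1 lower. FCGR3A, an Fc receptor that signals with such adaptors, had 15.6, 23.4 and 20.2 units in PL and 60.6, 68.5 and 64.5 in W2 (1.70 ± 0.20, adjusted p = 2.0e-04; 0.97 and adjusted p = 7.4e-04 after scaling). FCGR2B (2.56 ± 0.71, adjusted p = 0.0163) and INPP5D (1.91 ± 0.54, adjusted p = 0.0187) were called as deposited only, with adjusted p of 0.0892 and 0.162 after scaling. TREM1, a receptor of neutrophils and inflammatory monocytes, fell from 1.81 to 0.092 units in the means (-1.87 ± 0.38, adjusted p = 0.0036). Of the other myeloid and leukocyte genes, 9 of 15 were called higher (30.4% of all features) and none lower. Among them were LYZ, lysozyme (2.29 ± 0.42, adjusted p = 0.00195), CX3CR1, the fractalkine receptor (1.48 ± 0.29, adjusted p = 0.0027), and ITGAM (1.47 ± 0.27, adjusted p = 0.0019). After scaling 4 of the 15 were called higher (7.42% of all features).

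**Figure D5:**
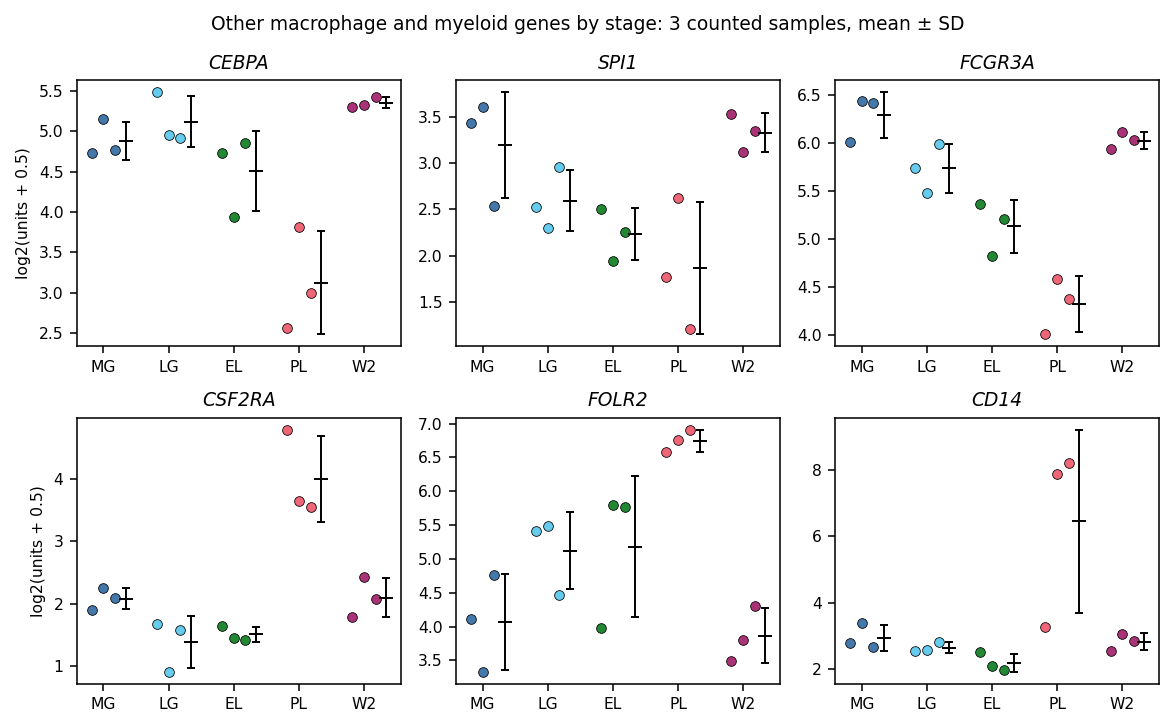
Log2(units + 0.5) of CEBPA, SPI1 and FCGR3A (above) and CSF2RA, FOLR2 and CD14 (below) in the 3 counted samples of each stage, with the mean ± SD (n = 3), vertical axes not starting at 0. The upper genes have their lowest mean in PL and the lower ones their highest, with PL sample 2 of CD14 at 9.23 units, far below the other PL samples.

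Marker lists of other cells differed in direction between PL and W2. Over all features, 30.4% were called higher in W2 and 2.48% lower, and 7.42% and 5.66% after scaling. Neutrophil markers (5 of 7 in the table) summed to 9.31 to 47.2 units in PL, and to 1.84 to 3.97 in MG, 2.17 to 3.38 in W2, 1.5 to 2.53 in LG and 0.71 to 1.76 in EL. S100A8, S100A9 and S100A12 were called lower in W2 than in PL, and S100A8 was listed at 0 in every counted sample of LG, EL and W2. The means of CSF3R and ELANE, named here after their values were seen, went the other way, and neither was called. CSF3R averaged 0.77 units in PL and 1.44 in W2, and ELANE 0.21 and 0.70. Both stayed below 2 units throughout. T and NK cell markers (8 of 8) summed to 19.8 to 38.4 units in PL and 47.0 to 57.1 in W2, with 5 called higher in W2 and 0 after scaling. Fibroblast markers (6 of 6) summed to 472 to 1087 units in PL and 1401 to 2632 in W2, with 5 called higher and 2 after scaling. Mast cell markers (2 of 4) and endothelial markers (4 of 5) had 2 each called higher, and 0 after scaling, when 1 endothelial marker was called lower. B and plasma cell markers (4 of 6), dendritic cell markers (5 of 7) and epithelial markers (5 of 6) had none called in limma as deposited, and 1 epithelial marker was lower after scaling. Adipocyte markers (3 of 5) had 1 called in each direction, and 6 of the 7 milk protein genes were called lower in W2. The part of these cells in the members' differences was not tested.

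The genes most like the members over the 15 samples were sought among 8133 genes with a symbol and a mean of at least 5 units, by Pearson's r of log2(units + 0.5). For CSF1R they were LOC110257712 (0.935), PLTP (0.934), RTL5 (0.931), BCAM (0.930) and ZNF346 (0.928). After median ratio scaling LOC110257712 and PLTP stayed among the 5 nearest (0.915 and 0.901), and BCAM came to place 135. For the sum of C1QA, C1QB and C1QC they were SIVA1 (0.972), TRMT112 (0.968), PRPF31 (0.966), CDK4 (0.966) and AP1S1 (0.966). After scaling TRMT112 was nearest (0.891), FCGR3A came to place 3 (0.875) and PRPF31 and AP1S1 came to places 1494 and 968. These 15 points share the stages and the total each sample is scaled to, so the coefficients are descriptions of these samples.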

How the data were processed

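Mammary RNA of 30 sows was sequenced. Per the labels and methods, the authors used FastQC for read quality, Trimmomatic for trimming, HISAT2 for alignment to Sscrofa11.1 and StringTie for assembly and quantification, and kept transcripts that reached an FPKM of 0.5 in 1 stage or more. The deposited values are called FPKM but add up to 997480 to 1002643 per sample, so they were treated as TPM. Whether they include the authors' correction for unwanted variation is not stated, and read counts per transcript were not analysed here, so precision rests on the spread between sows. The records of samples titled EL and MG carry each other's stage name; titles were followed. Of the transcripts, 32672 matched a gene of the annotation and 29047 were assembled, holding 14.6 to 21.8% of units, and these were not tied to the members.

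Samples that were near-copies were not counted. Over transcripts that averaged 10 units or more at the stage, 3 samples of each stage differed from one another by a median of at most 1.85%, the others by 19.6 to 59.8%, and the means of both sets by at most 0.741%. Log2(units + 0.5) was fitted with limma 3.58.1 (trended variance) in R 4.3.3, all 5 stages in a single fit, with Benjamini-Hochberg adjustment over all features in each of 10 comparisons and calls at adjusted p below 0.05. On simulated data of the same size, W2 vs PL recovered 14, 38, 41 and 42 of 50 planted log2 changes of 1, 2, 3 and 4 at gene level and called 6 unplanted genes. All unplanted features there had the same mean at every stage, while 30.4% of real features were called higher in W2 than in PL. The adjustment depends on that share, so the simulation does not tell how many real changes were found. Ratios were tested by exact permutation in Python 3.11.15. The ratios to CD68 that were planned were not computed. Named were all members, the genes called in W2 vs PL of each other list (at most 4, largest change first) and the 5 genes most like CSF1R and most like the C1q sum. Of the genes this rule names, 2 are not reported here. The members and lists were chosen with earlier results of these data known. Alternatives were other pseudocounts (0.1 and 1), a filter on low values, quantile and median ratio scaling, all 6 samples, the near-copies as 1 sample, the compared stages alone, the replicate number as a block, the highest transcript of a gene, and each sample left out in turn.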

Additional observations from a re-analysis of the deposited data

How the results depend on the processing

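Over 90 pairs of member and comparison, 17 were called as reported. The number was 8 after median ratio scaling, 9 after quantile normalization, 51 with all 6 samples of a stage, 36 with the near-identical samples as 1, 4 with the compared stages alone, and 13 to 22 with each counted sample left out in turn. Of 220 pairs of transcript and comparison, 8 were called, against 1, 4, 93, 34 and 0 under those settings and 4 to 11 with samples left out. Median ratio scaling without PL sample 2, added after seeing the data, gave 5 and 1. Members called in W2 vs PL (6) were 3 after either scaling, 2 with the compared stages alone, 2 with scaling without PL sample 2 and 5 to 7 with samples left out. In PL vs MG (6) they were 2 with the compared stages alone, 2 with scaling without PL sample 2 and 4 to 7 with samples left out. In PL vs LG (5) they were 1 after either scaling, 1 with scaling without PL sample 2, 0 with the compared stages alone, 3 with the highest transcript of a gene and 1 to 7 with samples left out (1 without LG sample 1 or 4, 2 without PL sample 2, 3 without MG sample 1, LG sample 3 or EL sample 6). In PL vs EL (0) they were 1 after quantile normalization, 5 with all 6 samples, 3 with the near-identical samples as 1 and 0 to 1 with samples left out. The compared stages alone and the samples left out leave fewer degrees of freedom, and the near-copies add samples without new spread. Shares of all features called are given above for the values as deposited and, for W2 vs PL, PL vs MG and PL vs LG, for gene sums after median ratio scaling. For the other settings, the replicate block included, they are not given. The counts of this section therefore do not tell a shift of the members from one of the whole table. The cause of the shifts in these counts was not tested for any setting. Pseudocounts of 0.1 and 1 and the filter left the count of genes at 17 (transcripts 9, 8 and 10).

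With the replicate block 8 gene pairs and 2 transcript pairs were called, with 3 members in PL vs MG, 0 in PL vs LG and 5 in W2 vs PL. Of 19 pairs of samples with the same number, 5 had deviations correlated above 0.1 (range -0.0994 to 0.137). Of 71 with different numbers 14 did (-0.109 to 0.182). So few pairs cannot settle whether samples of the same number share anything.

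The sign turned for MRC1 in W2 vs PL (-0.32 after quantile normalization, -0.26 after median ratio scaling, -0.072 with PL sample 2 left out as well), for MRC1 in PL vs LG (0.18 and 0.15 after the same scalings) and for AIF1 in PL vs MG (0.0079 after median ratio scaling), none of them called under these settings. CSF1R, C1QA, C1QB and TYROBP kept their calls in W2 vs PL and PL vs MG with each sample left out. CD163 in W2 vs PL was called in 13 of 15 such fits, lost without W2 sample 3 or 6, and was 1.47 without PL sample 6. CSF1 in W2 vs PL was called only without PL sample 3 (3.15, adjusted p = 0.0095). None of the 15 ratio tests, nor of the 25 tests of ratios to C1QB added after seeing the data, passed under any pseudocount or with any sample left out. With so few samples a single ratio test could not pass these adjustments even where a stage lay wholly apart. No conclusion about the ratios is drawn from this. Among the added ratios, the log2 ratio of CSF1R to C1QB was 0.91 higher in W2 and that of MRC1 to C1QB 0.69 higher in PL than in the other stages (exact permutation p = 0.0088 and 0.0132, adjusted p = 0.165 for both).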
